A study of Mus musculus with 6 samples.

Results

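The ORs described here are the 53 genes whose name is Olfr followed by a number, from Olfr414 to Olfr433, Olfr1402 to Olfr1416, Olfr1328 to Olfr1342 or Olfr434 to Olfr461, which are 10, 11, 13 and 19 genes of the 24661 in the files. They are 53 of the 1086 ORs that no annotation marks as pseudogenes (intact ORs). The ranges stand for small OR clusters of mouse chromosomes 1, 4 and 6, and 51 of the 53 genes lie there in GENCODE M21 (GRCm38). The other 2 do not. Olfr1336 lies on chromosome 7 (chr7:6456168-6466817) and Olfr1402 on chromosome 3 (chr3:97407450-97422020), and both were kept because the rule goes by number. When genes over 500000 bases apart are parted, a step chosen after the positions were seen, the 53 genes fall into 9 places in the genome. RNA-Seq was made from whole olfactory mucosa, the nasal lining with the olfactory epithelium and tissue around it (labelled olfactory epithelium), of 3 wild-type and 3 RTP1,2DKO mice aged 21 days. Both groups carry the strain label C57BL/6 and were sex-matched littermates. RTP1,2DKO mice lack Rtp1 and Rtp2 in every cell. The coding regions were replaced, by loxP for Rtp1 and a puromycin cassette for Rtp2, through embryonic stem cells of mixed 129 and B6 origin. The mice were then backcrossed to C57BL/6. The comparison asks whether loss of both RTPs changes the abundance of these OR transcripts, against all genes and against other ORs.

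ORs are G protein-coupled receptors that detect odorants on the cilia of olfactory sensory neurons (OSNs). Each mature OSN expresses a single OR gene, and OR genes lie mostly in clusters of related genes. The amount of an OR transcript in the mucosa therefore depends on how many OSNs chose that gene and on how much RNA each makes. RTP1 and RTP2 are accessory proteins that help ORs reach the cell surface. By RNA-Seq of whole tissue alone, fewer OSNs of a type and less RNA per OSN cannot be told apart. The ligands of most of these ORs are unknown, and no role beyond odorant detection is given here for single members.

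The coding sequences show how alike members from 1 place can be. Stretches of 100 coding bases are printed for 3 sets of neighbours whose fold changes in RTP1,2DKO were of unlike size or sign, each at the part of the alignment with the most differing bases, from GENCODE M21 transcripts and read 5′ to 3′ in the direction of the gene. Capitals mark bases that differ from the first sequence of a set. Olfr1330 (chr4:118893468-118893567, plus strand) and Olfr1328 (chr4:118934364-118934463, minus strand) are 92.62% identical over the whole coding sequence and differ at 15 of the 100 bases shown.
Olfr1330: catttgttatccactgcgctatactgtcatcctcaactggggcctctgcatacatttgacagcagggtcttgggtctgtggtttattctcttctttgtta
Olfr1328: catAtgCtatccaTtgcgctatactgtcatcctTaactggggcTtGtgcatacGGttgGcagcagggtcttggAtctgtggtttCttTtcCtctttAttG

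Olfr1414 (chr1:92511099-92511198, minus strand) is 91.59% identical to Olfr1415 (chr1:92490826-92490925, minus strand) and 92.55% identical to Olfr1416 (chr1:92479692-92479791, minus strand), and 22 and 27 of the 100 bases differ.
Olfr1414: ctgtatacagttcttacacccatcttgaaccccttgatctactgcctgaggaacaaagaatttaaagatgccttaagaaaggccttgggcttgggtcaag
Olfr1415: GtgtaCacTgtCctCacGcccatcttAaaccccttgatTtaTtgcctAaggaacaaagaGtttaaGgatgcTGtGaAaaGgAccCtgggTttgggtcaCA
Olfr1416: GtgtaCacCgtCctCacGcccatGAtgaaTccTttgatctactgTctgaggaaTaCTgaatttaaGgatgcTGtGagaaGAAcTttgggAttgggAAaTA

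Olfr1408 (chr1:173130399-173130498, minus strand) is 88.07% identical to Olfr1406 (chr1:173183616-173183715, minus strand) and 60.32% identical to Olfr1404 (chr1:173216376-173216475, plus strand), which is shown as a distant neighbour, and 18 and 41 of the 100 bases differ.
Olfr1408: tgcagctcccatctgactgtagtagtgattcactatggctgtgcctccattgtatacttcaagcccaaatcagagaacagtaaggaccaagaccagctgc
Olfr1406: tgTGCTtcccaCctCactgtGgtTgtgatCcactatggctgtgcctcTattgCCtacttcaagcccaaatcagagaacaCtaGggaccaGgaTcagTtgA
Olfr1404: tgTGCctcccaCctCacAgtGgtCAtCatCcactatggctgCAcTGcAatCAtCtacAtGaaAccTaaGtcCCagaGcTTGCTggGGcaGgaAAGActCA

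Total estimated counts lay between 31125410 and 41636996 per mouse, of which intact ORs held 0.720% to 1.12%. The 53 ORs together had 7893 to 10641 counts in wild-type mice and 7671 to 8287 in RTP1,2DKO mice. The median count of a member was 95.0 to 144 in wild-type and 41.0 to 50.3 in RTP1,2DKO mice, so the sum changed less than the typical member. Rtp1 had 13542 to 25301 normalized counts in wild-type and 85.5 to 109 in RTP1,2DKO mice, and Rtp2 had 7157 to 9511 and 26.2 to 58.0, so the labels held in every mouse. Of 4 markers of mature OSNs, Omp (67309, 60014 and 67099 normalized counts in wild-type, 27622, 36678 and 39603 in RTP1,2DKO), Cnga2 and Stoml3 were lower past the threshold. Among 30 marker genes of 9 other cell types, edgeR called 0, with 9 at an unadjusted p under 0.05 and 1 past the threshold with DESeq2. The summed counts of Hbb-bs, Hba-a1 and Alas2, which mark red blood cells, were 54999 to 89701 in wild-type and 87552 to 159853 in RTP1,2DKO mice. The part of these cells in the results was not tested.

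In wild-type mice the median member was close to the median intact OR in estimated counts. The medians were 104 against 108, 144 against 143 and 95.0 against 95.1 in wild-type mice 1, 2 and 3. When counts were scaled to transcript length, the median member was lower. The median member had 1.74 FPKM (fragments scaled to effective transcript length and to the total of the library) and the median intact OR 2.70 FPKM. Olfr449 on chromosome 6 was the highest with 16.6 ± 5.50 FPKM (SD, n = 3), rank 45 of the 1086 intact ORs. It was followed by Olfr1340 with 8.56 ± 1.81 FPKM (SD, n = 3) and Olfr1336 with 7.38 ± 1.02 FPKM (SD, n = 3), ranks 136 and 175. The next were Olfr446 with 5.60, Olfr1408 with 5.44, Olfr1406 with 5.31 and Olfr414 with 4.47 FPKM, and their SDs of 0.95 to 2.23 FPKM exceed the steps between these neighbours in the order.

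Against all genes (size factors from the whole table), 17 of the 53 ORs were lower and 1 was higher in RTP1,2DKO, by the quasi-likelihood test of edgeR at an adjusted p under 0.05. Log2 fold changes below are RTP1,2DKO over wild-type, given ± standard error. By the same test 3.19% of all 22152 genes tested were lower and 0.438% higher, and among the 1078 ORs tested 39.1% were lower and 4.17% higher. The members' shares were 32.1% lower and 1.89% higher, and whether they differ from those of ORs in general was not tested. The median log2 fold change of the 44 members with a mean of at least 10 counts was -1.20, against -1.14 for the 960 ORs and 0.01 for the 18152 genes above that level. The largest decreases were those of Olfr452 with -2.75 ± 0.36 (edgeR, adjusted p = 0.00083) and Olfr424 with -2.70 ± 0.49 (edgeR, adjusted p = 0.0068). Olfr452 is 1 of 5 members of the chromosome 6 place that fell, with Olfr455 (-1.82), Olfr448 (-1.67), Olfr437 (-2.31) and Olfr457 (-1.17). Olfr460 (-1.58) and Olfr461 (-0.96), which lie together in another place on this chromosome, fell as well. On chromosome 1, Olfr1408 (-2.41), Olfr1406 (-1.87), Olfr1412 (-2.20), Olfr1414 (-1.44), Olfr430 (-2.05) and Olfr417 (-0.98) fell, and on chromosome 4, Olfr1340 (-1.72), Olfr1339 (-1.56) and Olfr1341 (-1.11).

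The only member past the threshold for an increase was Olfr449. It had 595, 769 and 472 normalized counts in wild-type and 992, 1033 and 907 in RTP1,2DKO mice, a log2 fold change of 0.67 ± 0.17 (edgeR, adjusted p = 0.048). The groups did not overlap, but the call held in 1 of the 6 fits that left out a mouse, the one without wild-type mouse 2, and the adjusted p was 0.11 to 0.19 in the others (edgeR). Olfr447 had a larger log2 fold change, 1.11 ± 0.28 (edgeR, adjusted p = 0.056), and passed with the replicate number as a block (adjusted p = 0.043 from edgeR). Of the 17 decreases, 11 held in all 6 fits that left out a mouse, and 6 did not. Olfr417 was lost without wild-type mouse 1 (-0.87) or RTP1,2DKO mouse 2 (-0.86). Olfr1339 and Olfr460 were lost without wild-type mouse 2 (-1.38 and -1.47), RTP1,2DKO mouse 2 (-1.52 and -1.46) or RTP1,2DKO mouse 3 (-1.43 and -1.54). Olfr1341 (-1.16 to -0.95) and Olfr461 (-1.04 to -0.80) were lost without any mouse other than wild-type mouse 3, and Olfr457 (-1.21 to -1.0) without any mouse other than RTP1,2DKO mouse 1. With the block, Olfr419 (-1.25) and Olfr1330 (-0.97) also passed as lower, with adjusted p of 0.035 and 0.036 from edgeR.

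To compare ORs with each other, size factors were computed over intact ORs, which moved the median OR with at least 10 counts up by 0.98 on the log2 scale. An OR that is underrepresented (uOR) or overrepresented (oOR) is so relative to the typical OR. The names are the study's, but the calls are those of this comparison and can differ from the study's calls. On this scale 10 of the 53 ORs were uORs and 11 were oORs, while 26.3% of the 1078 ORs tested were uORs and 30% were oORs. The members' shares were 18.9% and 20.8%, and whether they differ from these was not tested either. The median log2 fold change of the 44 members with at least 10 counts was -0.24, and that of the 960 ORs was -0.16. Every RTP1,2DKO mouse lay above every wild-type mouse in 13 members and below in 14, and among the 1078 ORs this was so in 30.9% and 29.5%. All 11 oORs and 9 of the 10 uORs were in these groups, the exception being Olfr1340. All 10 uORs were also past the threshold as lower against all genes. Their direction there was fixed in advance, since that scale lies 0.98 lower for the median OR. Of the 11 oORs, 10 kept a positive log2 fold change against all genes and Olfr446 had -0.32. When libraries were scaled to their total OR count instead, 29 members were underrepresented and 7 overrepresented, and 49.2% and 17.0% of ORs were. The study, which normalized to reads on intact ORs, also called more ORs underrepresented than overrepresented. The total OR count thus gave the study's order, while the median-of-ratios size factors, with 26.3% and 30%, gave the reverse. The oORs that stayed past the threshold with the total OR count were Olfr414, Olfr432, Olfr1404, Olfr1328, Olfr1336, Olfr447 and Olfr449.

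**Figure D1:**
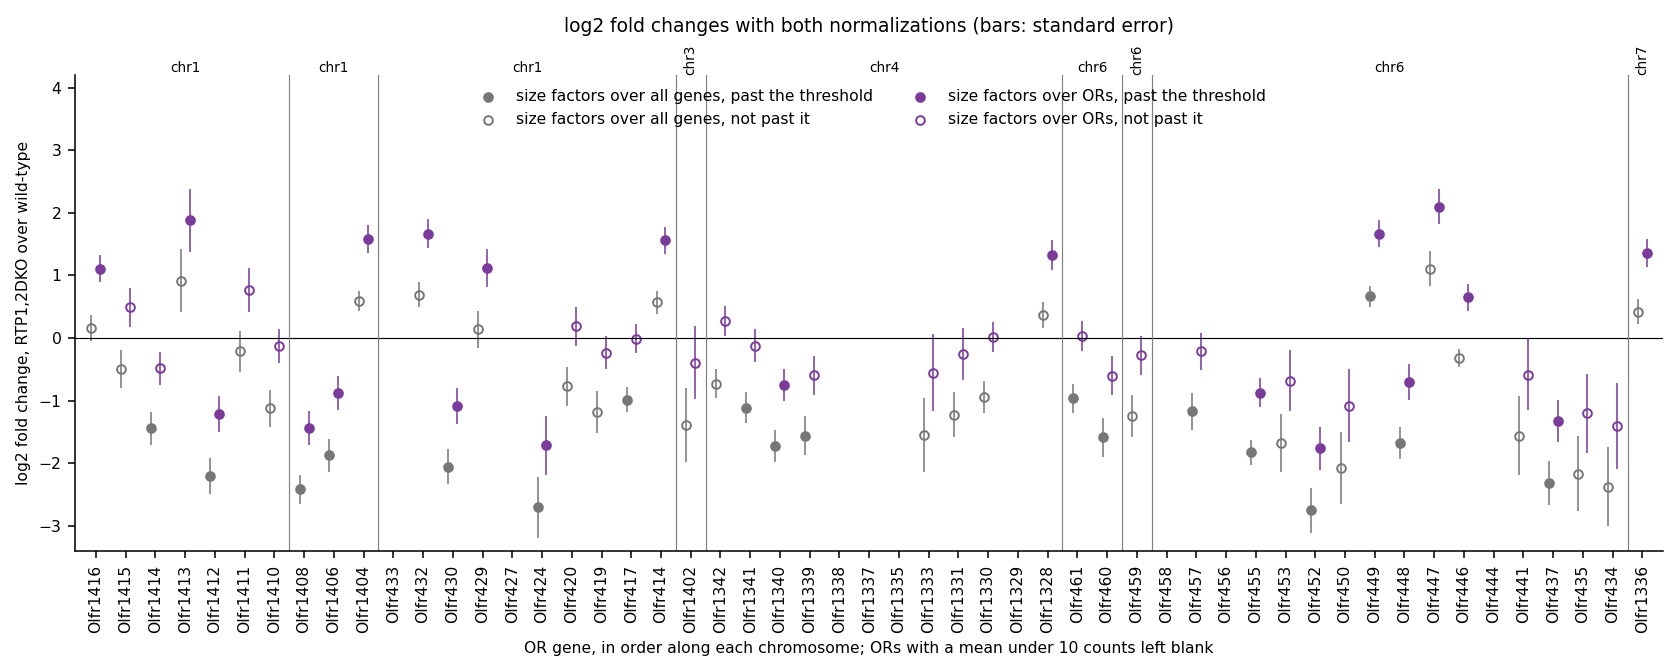
log2 fold change in RTP1,2DKO (y axis) of the 44 ORs that averaged 10 counts or more, in order along each chromosome (x axis), with size factors over all genes (grey) or over ORs (purple). Bars are standard errors and filled points are past the threshold. The OR normalization moves every gene up by a like amount, and its p-values are adjusted over ORs instead of all genes. Calls go from 17 lower and 1 higher to 10 lower and 11 higher. Adjustment over ORs alone, with size factors over all genes, gives 32 lower and 5 higher. Filled purple points of both directions stand in 5 of the 9 places.

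The 10 members Olfr414 to Olfr433 lie in 1 place on chromosome 1, chr1:174040705-174434747, and hold 3 oORs and 2 uORs. The study chose Olfr414 as an oOR on these samples. It then counted OSNs by in situ hybridization and reported a greater fraction positive for Olfr414 in the mutant than in wild-type mice. Olfr414 (chr1:174424064-174434747) had 215, 227 and 201 in the wild-type mice and 575, 568 and 755 in the RTP1,2DKO mice as OR-normalized counts. Its log2 fold change was 1.56 ± 0.22 (edgeR, adjusted p = 4.3e-08) among ORs and 0.57 ± 0.18 (edgeR, adjusted p = 0.14) against all genes. Olfr432 had 118, 134 and 111 in the wild-type mice and 382, 369.7 and 409.6 in the RTP1,2DKO mice, a log2 fold change of 1.67 ± 0.23 (edgeR, adjusted p = 2.1e-08). Its neighbour Olfr430, 11.9 kb away, went the other way. It had 100.5, 137 and 142 in the wild-type mice and 69.7, 59.6 and 49.6 in the RTP1,2DKO mice, with a log2 fold change of -1.08 ± 0.29 (edgeR, adjusted p = 0.0013). Olfr429, the next gene along, was an oOR again with 33.5, 42.1 and 52.7 in the wild-type mice and 73.5, 104 and 101 in the RTP1,2DKO mice and a log2 fold change of 1.12 ± 0.31 (edgeR, adjusted p = 0.0019). This call was lost with the total OR count (0.34, adjusted p = 0.36 from edgeR), and against all genes the log2 fold change was 0.14 ± 0.29 (edgeR, adjusted p = 0.91) and became -0.01 without wild-type mouse 1.

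Olfr424 was the most reduced OR of this place. Its OR-normalized counts were 45.9, 49.2 and 52.7 in the wild-type mice and 5.20, 31.7 and 7.10 in the RTP1,2DKO mice, so that RTP1,2DKO mouse 2 lay well above the other mutants but still below the wild-type mice. The log2 fold change was -1.71 ± 0.47 (edgeR, adjusted p = 0.0017) and was -2.97 without RTP1,2DKO mouse 2, and no single mouse left out ended the call. Along this place each of the 4 steps from a called OR to the next called OR changed direction with median-of-ratios size factors over ORs, and 3 of 6 did with the total OR count. How often such steps turn among ORs outside the members was not counted. Olfr417, Olfr419 and Olfr420 were not called and had log2 fold changes of -0.01, -0.23 and 0.19.

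**Figure D2:**
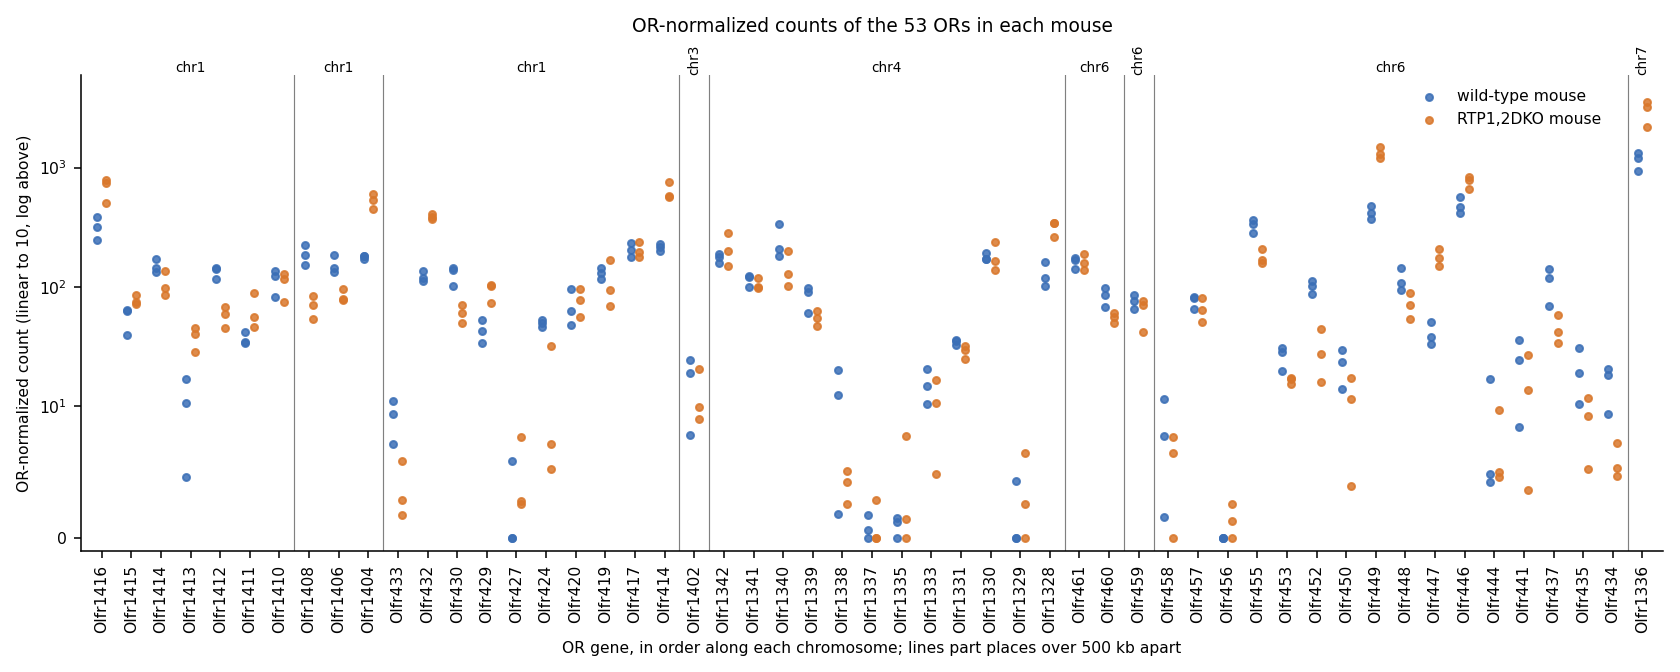
OR-normalized count of each of the 53 ORs (x axis, in order along each chromosome) in every wild-type (blue) and RTP1,2DKO mouse (orange), on an axis that is linear to 10 and logarithmic above. Wild-type and mutant points stand apart in both directions within single places, as for Olfr432 (111 to 134 against 369.7 to 409.6) beside Olfr430 (100.5 to 142 against 49.6 to 69.7), and 9 ORs stay near 0.

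The range Olfr1402 to Olfr1416 falls into 2 places on chromosome 1 and the single gene on chromosome 3. In the place with 3 members, chr1:173128049-173218583, all of them were called. Olfr1404 (chr1:173212392-173218583) had 181, 170.1 and 182 in the wild-type mice and 446, 537 and 605 in the RTP1,2DKO mice, a log2 fold change of 1.58 ± 0.22 (edgeR, adjusted p = 4.1e-08). Olfr1408 had 154, 184 and 223 in the wild-type mice and 53.8, 84.2 and 70.1 in the RTP1,2DKO mice, a log2 fold change of -1.43 ± 0.27 (edgeR, adjusted p = 1.4e-05). Olfr1406 had 134, 185 and 143 in the wild-type mice and 76.9, 78.6 and 95.9 in the RTP1,2DKO mice, a log2 fold change of -0.88 ± 0.27 (edgeR, adjusted p = 0.0039). The groups of mice did not overlap for any of the 3 genes, and the pair with 88.07% identity fell while the distant neighbour was overrepresented. The ratio of Olfr1404 to Olfr1408 counts within a mouse, which needs no size factor, was 1.18, 0.925 and 0.815 in the wild-type and 8.30, 6.37 and 8.63 in RTP1,2DKO mice.

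The other place of this range, chr1:92475925-92614806, holds 7 members with 2 oORs and 1 uOR. Olfr1412 was the uOR, with 143, 141 and 116 in the wild-type mice and 59.5, 67.2 and 45.3 in the RTP1,2DKO mice and a log2 fold change of -1.21 ± 0.29 (edgeR, adjusted p = 0.00031). The adjacent Olfr1413 had few counts, 10.5, 4.60 and 16.9 in the wild-type mice and 45.2, 28.1 and 40.0 in the RTP1,2DKO mice, but no overlap between groups, and its log2 fold change was 1.88 ± 0.50 (edgeR, adjusted p = 0.0012). It was not past the threshold when libraries were scaled to the total OR count (1.10, adjusted p = 0.055 from edgeR). Olfr1416 had 381, 245 and 317 in the wild-type mice and 746, 505 and 788 in the RTP1,2DKO mice, a log2 fold change of 1.11 ± 0.22 (edgeR, adjusted p = 3.3e-05) that became 0.33 (adjusted p = 0.19 from edgeR) with that scaling. Its close relatives Olfr1415 and Olfr1414 had log2 fold changes of 0.49 and -0.48, neither past the threshold. With the total OR count these were -0.29 (adjusted p = 0.44 from edgeR) and -1.26, and Olfr1414 was then underrepresented (adjusted p = 4.6e-05 from edgeR). Olfr1402 on chromosome 3 had 24.0, 19.0 and 7.80 in the wild-type mice and 9.0, 20.3 and 9.90 in the RTP1,2DKO mice, and its groups overlapped. Its log2 fold change was -0.39 ± 0.58 (edgeR, adjusted p = 0.56). Olfr1411 (0.77) and Olfr1410 (-0.12), the remaining members on chromosome 1, were not called, although every mutant lay above every wild-type mouse for Olfr1411 (edgeR, adjusted p = 0.054).

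On chromosome 4, 12 members lie in chr4:118687486-118938612, and 1 oOR and 1 uOR were found among them. Olfr1328 had 119, 101 and 162 in the wild-type mice and 341, 339.7 and 260.1 in the RTP1,2DKO mice, with a log2 fold change of 1.32 ± 0.24 (edgeR, adjusted p = 5.4e-06). Olfr1330, which differs from it in the sequences shown above, had 192, 170.3 and 171 in the wild-type mice and 236, 164 and 138 in the RTP1,2DKO mice and a log2 fold change of 0.02 ± 0.24 (edgeR, adjusted p = 0.96), and its groups overlapped. With TMM this value was -0.03, and with the total OR count Olfr1330 was underrepresented (-0.75, adjusted p = 0.0072 from edgeR). Olfr1340 was the most abundant OR here, with 180.5, 207 and 335 in the wild-type mice and 101, 199 and 128 in the RTP1,2DKO mice. Its groups overlapped through RTP1,2DKO mouse 2, and the log2 fold change of -0.75 ± 0.26 (edgeR, adjusted p = 0.012) was not past the threshold without wild-type mouse 3 (-0.44), RTP1,2DKO mouse 1 (-0.53) or RTP1,2DKO mouse 3 (-0.65). Olfr1331 and Olfr1333, the closest pair of all with 96.12% identity, had few counts, and their log2 fold changes of -0.25 and -0.55 were not past the threshold. Olfr1342 (0.27), Olfr1341 (-0.12) and Olfr1339 (-0.59) were not called among ORs either.

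Olfr1336, numbered with the chromosome 4 ORs but placed on chromosome 7, had the most counts of all members, 1337, 940.2 and 1210.5 in the wild-type mice and 3554, 2175 and 3240.4 in the RTP1,2DKO mice. As OR-normalized counts the groups did not overlap. The log2 fold change was 1.36 ± 0.23 (edgeR, adjusted p = 2.7e-06) among ORs and 0.42 ± 0.20 (edgeR, adjusted p = 0.43) against all genes. As a share of OR counts, RTP1,2DKO mouse 2 (0.572%) lay below wild-type mouse 1 (0.591%). With size factors over all genes, RTP1,2DKO mouse 2 had 1495 counts and lay below every wild-type mouse (1514 to 1900). This OR alone took 14.9% to 20.3% of the members' counts in wild-type and 22.1% to 33.3% in RTP1,2DKO mice. RTP1,2DKO mouse 1 had the highest of these shares.

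Chromosome 6 holds 19 members, 16 of them in chr6:42459979-43218113 with 3 oORs and 4 uORs. Olfr449 (chr6:42834384-42839516) had 418, 478 and 369.7 in the wild-type mice and 1214, 1503 and 1311 in the RTP1,2DKO mice, a log2 fold change of 1.67 ± 0.22 (edgeR, adjusted p = 1.0e-08). Olfr447 (chr6:42908878-42914273) had 37.9, 50.6 and 32.9 in the wild-type mice and 150.3, 206 and 174 in the RTP1,2DKO mice, and its log2 fold change of 2.10 ± 0.28 (edgeR, adjusted p = 1.8e-08) was the largest increase of any member with at least 10 counts. Olfr448 lies between both oORs. It had 94.3, 107 and 143 in the wild-type mice and 53.2, 89.2 and 69.6 in the RTP1,2DKO mice, with every mutant below every wild-type mouse, and its log2 fold change was -0.70 ± 0.29 (edgeR, adjusted p = 0.036). The call of Olfr448 was lost without wild-type mouse 3 (-0.51), RTP1,2DKO mouse 1 (-0.51) or RTP1,2DKO mouse 3 (-0.66).

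Olfr446 was overrepresented by the smallest amount, 0.65 ± 0.21 (edgeR, adjusted p = 0.0076), from 419, 468 and 570.3 in the wild-type mice and 665, 836 and 784 in the RTP1,2DKO mice. This direction rests on the scaling, since the log2 fold change was -0.32 against all genes and -0.13 with the total OR count. Olfr452 was the most reduced of the members with at least 10 counts, with 87.5, 112 and 101 in the wild-type mice and 27.1, 44.4 and 15.8 in the RTP1,2DKO mice and a log2 fold change of -1.76 ± 0.35 (edgeR, adjusted p = 2.8e-05). Olfr437 (-1.32, adjusted p = 0.00054 from edgeR) and Olfr455 (-0.87, adjusted p = 0.001 from edgeR) were the other uORs. Olfr455 was the most abundant of these, with 337, 282 and 360.2 in the wild-type mice and 208, 159 and 168 in the RTP1,2DKO mice. Olfr434 (-1.40), Olfr435 (-1.20), Olfr450 (-1.08), Olfr453 (-0.68), Olfr441 (-0.58) and Olfr457 (-0.21) had negative log2 fold changes that were not past the threshold, and all but Olfr457 had mean counts of 25 or less. Away from this place, Olfr460, Olfr461 and Olfr459 were not called among ORs, with log2 fold changes of -0.60, 0.03 and -0.27.

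With median-of-ratios size factors over ORs, 11 of the 15 steps from a called member to the next one along the chromosome changed direction, over the 5 places with at least 2 called members and with ORs outside the ranges not counted. With the total OR count, 9 of 28 steps over 6 places did, so this count depends on the scaling. No such count was made over all ORs, so whether either share is unusual was not tested. For 6 pairs from 1 place, chosen after their values were seen, the ratio of estimated counts within each mouse was compared, which depends on no size factor. The ratio of Olfr1328 to Olfr1330, the pair with 92.62% identity, was 0.620, 0.593 and 0.944 in the wild-type and 1.44, 2.07 and 1.88 in RTP1,2DKO mice. That of Olfr1416 to Olfr1414 was 2.25, 1.85 and 2.20 in the wild-type and 5.51, 5.92 and 8.04 in RTP1,2DKO mice. For Olfr447 to Olfr448, 9.8 kb apart, it was 0.402, 0.473 and 0.229 and then 2.83, 2.31 and 2.49. The largest shift was that of Olfr449 to Olfr452, from 4.78, 4.28 and 3.68 to 44.8, 33.9 and 83.1. On the log2 scale the ratios differed between groups by 1.34 to 3.57, and no groups overlapped. Since the pairs were picked for members that had moved apart, this separation is a description, with no test.

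**Figure D3:**
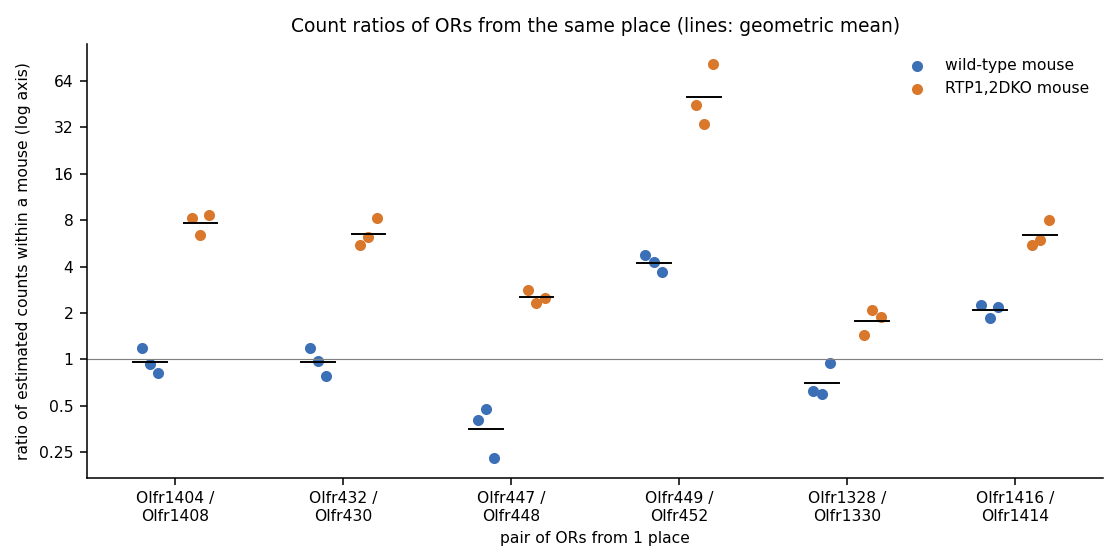
Ratio of the estimated counts of 2 ORs from the same place within each mouse (y axis, logarithmic), for 6 pairs (x axis), with wild-type mice in blue, RTP1,2DKO mice in orange and the geometric mean as a line. The pairs were picked after their values were seen, and as a description all RTP1,2DKO mice lie above all wild-type mice in each, from a shift of 1.34 on the log2 scale for Olfr1328 and Olfr1330 to 3.57 for Olfr449 and Olfr452.

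Sequence likeness was compared with likeness of change over the 44 members with at least 10 counts. The 9 pairs with at least 90% identity had a median absolute difference in log2 fold change of 0.98, with a largest difference of 1.87, and involve only 7 genes. The median was 0.89 in the 7 pairs with 80% to 90% identity, 0.62 in the 11 pairs with 70% to 80%, 0.87 in the 133 pairs with 60% to 70%, 1.04 in the 714 pairs with 50% to 60% and 1.56 in the 72 pairs under 50%. It was thus highest in the class under 50% and lowest in the 11 pairs of the 70% to 80% class. Gaps counted as differences, so a longer coding sequence lowers identity. Olfr449 with 1239 and Olfr1412 with 1203 coding bases were the longest, and Olfr449 was 47.9% identical to Olfr452. How far Olfr449 and Olfr1412 make up the class under 50% was not examined. The pairs share genes and are given as a description. Reads shared between similar genes bear on the most alike pairs. Of the 31-base words of Olfr1333, Olfr1331, Olfr1416, Olfr1415, Olfr1328, Olfr1330 and Olfr1414, 59.5%, 65.4%, 85.3%, 81.5%, 89.9%, 91.4% and 93.2% are found in no other GENCODE M21 gene. All 21 ORs called in the OR-normalized comparison had at least 82.3% such words over their whole transcripts. Over the coding sequence alone, the share in these ORs ran from 43.5% for Olfr1416 to 100%, as for Olfr429. The transcript models that kallisto used are not those of GENCODE M21, so these shares are a guide only.

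The RefSeq synonyms give a MOR family number, a grouping of mouse ORs by sequence, for 51 of the 53 members, in 11 families. MOR103 stood out when the values were seen, so its count is a description without a test. It has 6 members on chromosomes 1, 6 and 7. Olfr449, Olfr414, Olfr1336 and Olfr1416 were oORs, and Olfr1415 and Olfr1414 were not called. The 6 genes had a median log2 fold change of 1.24. Of the 11 MOR103 ORs outside the ranges, 6 were oORs and 3 were uORs, from 2.02 for Olfr1347 to -2.10 for Olfr522, so the family as a whole moved in both directions. Olfr1347 had 77.2, 63.9 and 136 OR-normalized counts in wild-type and 289.7, 388 and 436 in RTP1,2DKO mice. MOR257, with 5 members on chromosome 6, had no positive log2 fold change among its 4 members with at least 10 counts, and Olfr452 was the uOR among them. MOR105, MOR208, MOR261 and MOR267 each held oORs and uORs among the members.

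The 53 ORs together held 2.92%, 2.84% and 2.81% of the counts on intact ORs in wild-type and 2.89%, 2.59% and 2.47% in RTP1,2DKO mice, and the groups overlapped (exact permutation test, two-sided, p = 0.3). With same-numbered mice taken as pairs, the share was lower in the mutant of 3 of 3 pairs (exact paired permutation test, p = 0.25, the smallest that 3 pairs allow). The same held for each range except Olfr1328 to Olfr1342, whose share was lower in 1 of 3 pairs (exact paired permutation test, p = 0.5). The 11 members Olfr1402 to Olfr1416 held 0.616%, 0.593% and 0.550% in wild-type and 0.477%, 0.437% and 0.463% in RTP1,2DKO mice, without overlap (p = 0.1, exact permutation test). Members Olfr434 to Olfr461 held 0.920% ± 0.058 in wild-type and 0.765% ± 0.10 (SD, n = 3), also without overlap (p = 0.1, exact permutation test). The value 0.1 is the smallest p that 3 mice against 3 allow, so none of the 4 ranges could pass 0.05. Members Olfr414 to Olfr433 held 0.421% ± 0.008 and 0.400% ± 0.018 (SD, n = 3, exact permutation p = 0.2), and the sign of this small difference turned when Olfr907, the OR with most counts, was left out of the total. Members Olfr1328 to Olfr1342 held 0.930% ± 0.081 and 1.03% ± 0.188 (SD, n = 3, exact permutation p = 0.7), and the difference of 0.095 percentage points became -0.013 without RTP1,2DKO mouse 1. Without Olfr1336, a choice made after the data were seen, the same range held 0.408%, 0.417% and 0.451% in wild-type and 0.279%, 0.316% and 0.213% in RTP1,2DKO mice (exact permutation p = 0.1).

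**Figure D4:**
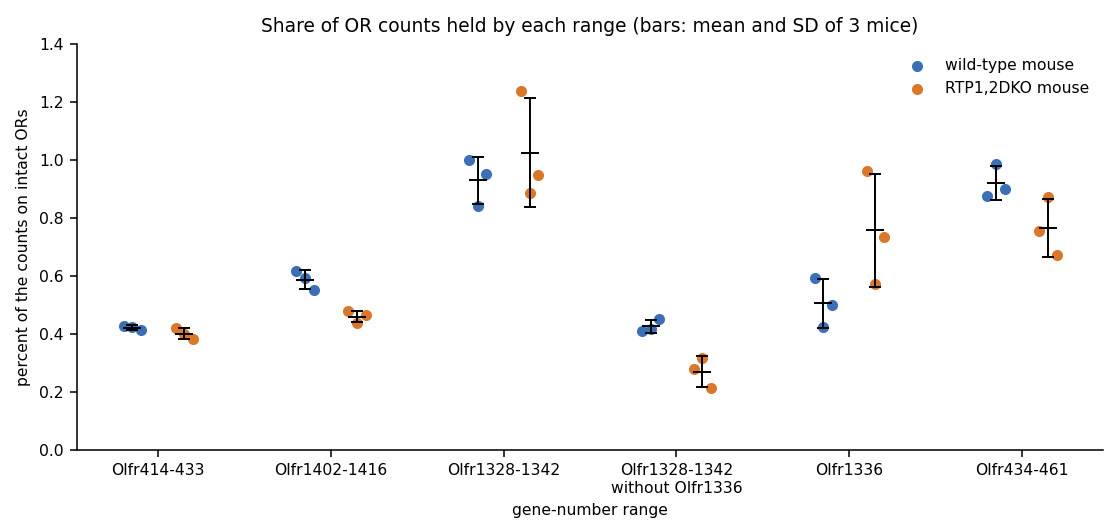
Share of the counts on intact ORs (y axis, percent) held by each gene-number range, by the range Olfr1328 to Olfr1342 without Olfr1336 and by Olfr1336 alone (x axis), per wild-type (blue) and RTP1,2DKO mouse (orange), with mean and SD. Olfr1336, the only single OR shown, holds 0.424% to 0.591% in wild-type and 0.572% to 0.961% in RTP1,2DKO mice, and these overlap. The other 12 genes of its range together hold 0.408% to 0.451% and 0.213% to 0.316%.

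A mean of under 10 counts per mouse was found for 9 members, Olfr1329, Olfr1335, Olfr1337 and Olfr1338 on chromosome 4, Olfr427 and Olfr433 on chromosome 1, and Olfr444, Olfr456 and Olfr458 on chromosome 6. Their log2 fold changes had standard errors of at least 0.74 against all genes and at least 0.80 among ORs, or could not be estimated, and are not given. No mouse had more than 19.9 OR-normalized counts of any of them. Olfr456 had 0 counts in each wild-type mouse, which allows up to 3 counts per library, and at most 2.6 OR-normalized counts in RTP1,2DKO mice. These low counts went with short transcript models. All transcript models of 11 members in the files are at most 1200 bases long, about the length of the coding sequence, and these are the 9 ORs above with Olfr1413 and Olfr441. Their mean counts ran from 0.5 to 21.2. The 42 members with a longer model had mean counts from 13.8 upward, with a median of 114. Among all intact ORs, 60.3% of the 189 with short models and 1.34% of the 897 with a longer model had a mean under 10 counts. In the 42 members with a longer model, models of at most 1200 bases held 3.7% to 7.8% of the counts of a mouse. Whether the short models miss part of the transcript was not tested.

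**Figure D5:**
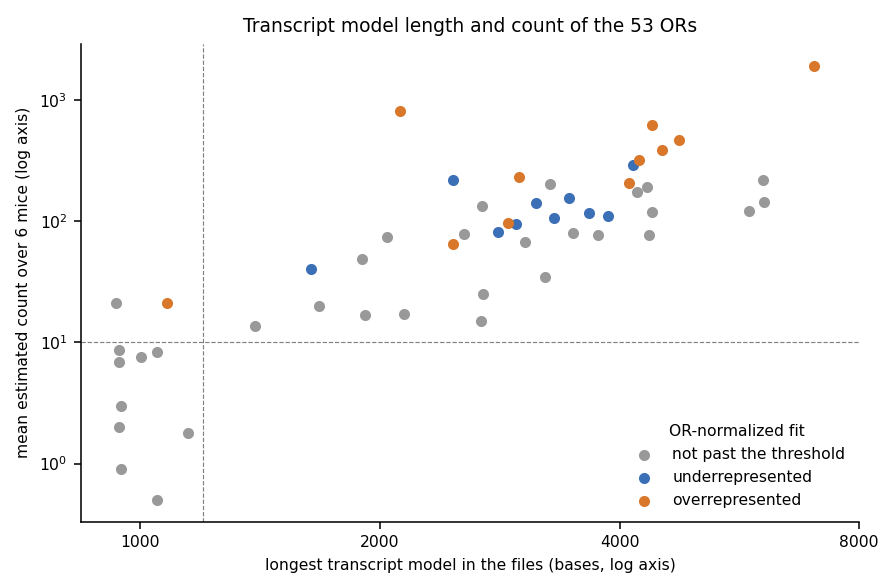
Mean estimated count over the 6 mice (y axis, logarithmic) against the length of the longest transcript model in the files (x axis, bases, logarithmic) for the 53 ORs, coloured by the call of the OR-normalized comparison. All 9 ORs under 10 counts have models of at most 1200 bases, and 20 of the 21 called ORs have longer ones.

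The genes that OSNs need to make and use an OR were set beside the members on the scale of the whole table. Of 14 genes of mature OSNs and odorant transduction other than Rtp1 and Rtp2, 11 were lower, with a median log2 fold change of -0.99, and the part of this decrease in the fall of the ORs was not tested. Adcy3, the adenylyl cyclase of the transduction cascade, fell by 1.41 on the log2 scale (SE 0.12, edgeR, adjusted p = 6.5e-05). Stoml3, a protein of OSN cilia, fell by 2.00. Among 12 genes of OR choice and the unfolded protein response, Adcy3, which is in both lists, was the only one called, and the transcription factors Lhx2 and Atf5 had log2 fold changes of 0.19 and 0.13 (adjusted p = 0.71 and 0.75 from edgeR). Among 8 genes of immature OSNs, Gap43, a growth cone protein, and Gng8, a G protein subunit, were higher, with log2 fold changes of 0.58 and 0.91 (adjusted p = 0.043 and 0.013 from edgeR).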

How the data were processed

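RNA-Seq libraries of olfactory mucosa were made from 3 wild-type and 3 RTP1,2DKO mice, grouped here by sample title. The authors made the libraries with a strand-specific kit (the labels and the methods name different ones) and assigned the reads with kallisto to mouse transcripts with extended OR models (mm10 in the submitters' processing notes). The kallisto version is not given in the sources used here. The deposited estimated counts per transcript were summed over each gene's transcripts and rounded to whole numbers. The deposited TPM values were not used, and FPKM was computed from estimated counts, effective lengths and total counts. Members are OR genes of similar sequence, and kallisto shares ambiguous reads between them by estimation. Whether it used strand is not given, so antisense reads may be included.

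Genes reaching 1 count in any mouse entered edgeR 4.0.16 (quasi-likelihood, R 4.3.3), size factors by median of ratios (DESeq2 1.42.0) and Benjamini-Hochberg adjustment at 0.05, over all genes and, separately, over intact ORs. Fold changes are fitted log2 values with size factors applied. P-values measure the spread between the 3 mice of a group, and the mice are taken as separate animals. Single values were compared by exact permutation tests (scipy 1.17.1). Positions, transcripts and types came from GENCODE M21, and coding identity from global alignment (biopython 1.88). At 31125410 to 41636996 total counts per mouse, ORs with a mean under 10 counts have no usable fold change.

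Same-numbered mice deviated together weakly, with correlations of 0.14, 0.177 and 0.101 over 18156 genes. Unlike-numbered mice had correlations of -0.217 to 0.09. Deviations within a group cancel out, so these values are tied to each other and do not establish pairing. The numbers were taken as pairs in an alternative fit. TMM, a low-count filter, DESeq2's test, each mouse left out, adjustment over ORs, and total OR count scaling were the other alternatives. The members and lists were chosen with earlier results of these data known, and the named genes follow a rule: per range the 3 highest in wild-type FPKM, the 3 largest changes each way past the threshold, Olfr414, ORs under 10 counts, ORs called over all genes and members of close pairs, judged here by coding sequence. On simulated data with known changes, the share of false calls exceeded the nominal 0.05 in both fits, more so over all genes. RefSeq start windows begin inside the GENCODE genes for most members and were not used here, and protein motifs were not analysed here. The summed level of 1 marker list is not reported here.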

Additional observations from a re-analysis of the deposited data

How the results depend on the processing

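The OR-normalized counts of 10 uORs and 11 oORs were within 1.5 times under TMM, the low-count filter, the replicate block, DESeq2, all Olfr-number names and each mouse left out (8 to 11 uORs, 11 to 12 oORs), and among members on chromosomes 1, 4 and 6 or with at least 80% unique words, both chosen after the data were seen. Total OR count scaling gave 29 and 7, and a median of -1.01 in place of -0.24, since it places the median OR 0.78 lower on the log2 scale. That median was -0.12 at a mean of at least 50 counts and -0.24 to -0.13 with each mouse left out. Against all genes, the 17 decreases were 11 (without RTP1,2DKO mouse 2) to 18 with each mouse left out, 23 with DESeq2 and 32 with adjustment over ORs alone. The 1 increase was 0 with the low-count filter, 2 with the block, 4 with DESeq2, 5 with adjustment over ORs, and 0 to 2 with each mouse left out. The median of -1.20 stayed between -1.28 and -1.11. With the replicate block, 19 members were lower, and pairing changed no call but those of Olfr419, Olfr1330 and Olfr447. The share difference of members Olfr414 to Olfr433 went from -0.021 to 0.021 percentage points without Olfr907 and was -0.030 to -0.012 with each mouse left out. That of members Olfr1328 to Olfr1342 went from 0.095 to -0.157 without Olfr1336 and was -0.013 to 0.163 with each mouse left out, while the other ranges kept their direction. With same-numbered mice as pairs, an alternative added after the data were seen, the share differences stayed as they were, since the mean of the pairs is the same. Of 608 values of 32 named members under the alternatives, 539 kept direction and side of the threshold, 38 lost the call and 15 gained one. The sign turned in 16, all of them uncalled before except Olfr446 (-0.13 with total OR count). With that scaling Olfr1415 (-0.29), Olfr1330 (-0.75) and Olfr461 (-0.75) turned, Olfr1330 and Olfr461 past the threshold, with TMM Olfr1330 (-0.03) and Olfr461 (-0.02). With each mouse left out, Olfr1416 ran from 0 (without RTP1,2DKO mouse 1) to 0.37 and Olfr429 from -0.01 (without wild-type mouse 1) to 0.23 against all genes, and among ORs Olfr417 from -0.10 to 0.12, Olfr1330 from -0.22 to 0.19 and Olfr461 from -0.07 to 0.15. The cause of these changes was not tested. The 9 ORs under 10 counts have no usable fold change at this depth, and whether depth or their short transcript models set those counts was not tested.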
